A study of Homo sapiens with 6 samples.

Results

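The proteasome is the barrel-shaped protease that degrades ubiquitin-tagged proteins, and this report covers the genes of its subunits in MDA-MB-231, a triple-negative human breast cancer cell line. Members were the listed genes whose symbol is PSMA, PSMB, PSMC, PSMD, PSME or PSMF followed by a number, leaving out PSMB8 and PSMB9, 2 interferon-induced catalytic subunits. This rule used no measured value and took 40 of 17088 listed genes. Of these, 15 encode the 20S core (7 PSMA and 8 PSMB), 20 were grouped as the 19S regulatory particle (6 PSMC and 14 PSMD), and 5 encode activators or an inhibitor (4 PSME and PSMF1). The 19S group includes PSMD5, PSMD9 and PSMD10, which help to assemble the particle and are not part of the complete one. It leaves out the 19S subunits ADRM1 and SEM1, whose symbols the rule does not match and which are given with other genes of the pathway. Control cells carried the control vector VecNC (3 libraries), and the other cells carried VecRPPH1 (3 libraries), which overexpresses RPPH1, the RNA component of RNase P. Apart from the vector, the labels name no difference between the groups, and they do not say whether replicates were separate cultures or how many clones the cells came from. P-values therefore measure only how these libraries vary, part of which may be technical. The single comparison asked whether the subunit transcripts differed when RPPH1 was overexpressed.

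In the 20S core, rings of alpha subunits (PSMA genes) form the gate and rings of beta subunits (PSMB genes) hold the active sites. The 19S particle caps the core. Its ATPases (PSMC genes) unfold substrates and thread them into the barrel. Its other subunits (most PSMD genes) bind ubiquitin chains, remove them or hold the particle together. The transcription factor NRF1, encoded by NFE2L1, is known to raise the transcription of many subunit genes together when proteasome activity is blocked, and tumour lines, triple-negative lines among them, are known for depending on proteasome activity.

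All 40 genes were expressed, and no difference between RPPH1 and control cells passed the test in any of them. Levels were in FPKM, fragments per kilobase of gene scaled to library depth. Each gene was tested with limma on log2(FPKM + 1) over the 10909 genes that had at least 1 FPKM in at least 3 libraries, and all 40 were among them, at a lowest mean of 21.4 FPKM. At a Benjamini-Hochberg adjusted p under 0.05 over all tested genes, 0 of 40 members were higher and 0 were lower, with a smallest limma adjusted p of 0.573, while 0.00917% of all tested genes were called (1 gene, lower, and 0 higher). limma-voom on fragment numbers recovered from the FPKM values also called 0 of 40 (smallest adjusted p 0.399), where it called 0.156% of all genes (0.0642% higher and 0.0917% lower). At an unadjusted p under 0.05, 1 member (PSMD2, lower) stood out by limma and 3 by voom, against 7.97% of all tested genes by limma and 8.67% by voom. In 38 of 40 members the 95% confidence interval of the log2 fold change lay within 0.2 on either side of 0, a factor of 1.15, and the 2 exceptions were PSME1 and PSMB10. Only 2 of 40 intervals lay within 0.1, a factor of 1.07. The median half-width was 0.093 in members and 0.130 in all tested genes. It was 0.102 in tested genes with mean levels in the range of the members. The interval with the highest bound, that of PSMB10, ended at a factor of 1.25. These intervals are not adjusted for the number of genes.

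**Figure D1:**
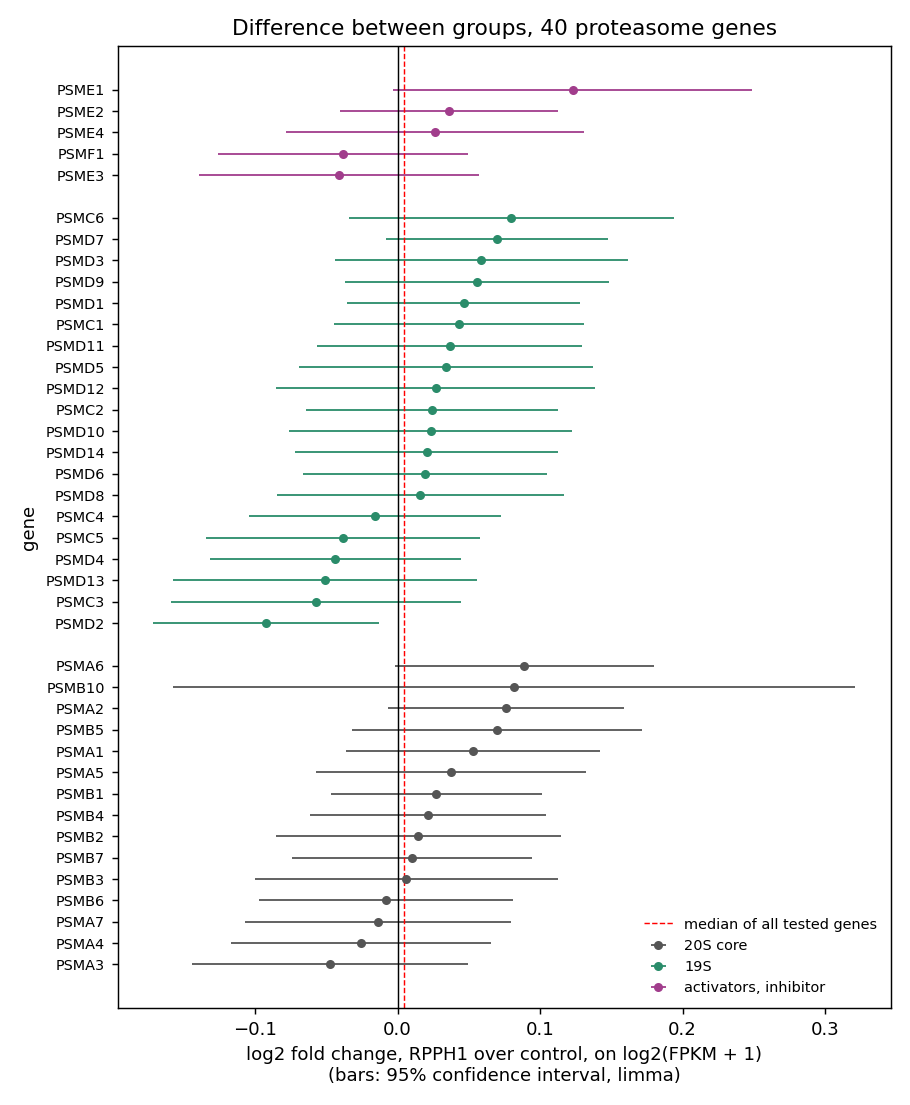
Difference between 3 RPPH1 and 3 control libraries for each of 40 proteasome genes, as log2 fold change on the log2(FPKM + 1) scale (x axis) by gene (y axis, grouped by class). Points are limma estimates, bars are 95% confidence intervals, and the dashed line is the median of all tested genes (0.0046). The bar of PSMD2 alone does not cross 0, and its adjusted p is 0.573.

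Marker genes were checked against the labelled line. VIM, a mesenchymal marker, was at 2585 to 2743 FPKM and ESR1, the oestrogen receptor gene, at 0 to 0.0173 FPKM, while the epithelial gene EPCAM was present at 6.17 to 7.29 FPKM. GATA3, also on the list of markers sought at low level, was present at 2.33 to 3.37 FPKM. From the same list, CLDN3 was at most 0.385 FPKM and FOXA1 at most 0.294 FPKM. CDH1 was at most 0.144 FPKM, and the leukocyte genes PTPRC, CD3E and LYZ summed to 0.105 to 1.17 FPKM in controls and 0.136 to 0.536 FPKM in RPPH1 cells. The transcript of RPPH1 was not analysed here, and its overexpression was therefore not checked. Depth, recovered from the FPKM values, was 17603126 to 18817269 fragments. A member had 364 to 26779 fragments in a library, and the counting error of the median member was 1.94% per library. Observed variation between replicates was larger. The median member had a coefficient of variation of 3.61% among controls and 2.56% among RPPH1 libraries, against 5.22% and 4.42% for all tested genes. For tested genes in the level range of the members the medians were closer, at 3.95% and 3.08%. The chi-square of fragment numbers within groups, which counting noise alone puts near 1 per degree of freedom, had a median of 3.05 over members. It had a median of 2.38 over all tested genes and 3.32 over those in the level range of the members. In 5 members it was at most 1, PSMF1 (0.109), PSMD1 (0.196), PSMD7 (0.277), PSMB1 (0.531) and PSME2 (0.577).

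The subunit genes are scattered over 15 chromosomes, with 7 of 40 on chromosome 14 and 7 on chromosome 17. Chromosome 14 holds 3.26% of the tested genes that could be placed and 17.5% of the members, namely PSMA3, PSMA6, PSMB5, PSMC1, PSMC6, PSME1 and PSME2. Chromosome 17 holds PSMB3, PSMB6, PSMC5, PSMD3, PSMD11, PSMD12 and PSME3. The gene of PSMD2, the most abundant member, spans chr3:184298709-184309054, and PSME1 (chr14:24136158-24138967, plus strand) and PSME2 (chr14:24143362-24147570, minus strand) face each other (GRCh38, GENCODE 29). Of the members, 12 overlap another listed gene, always on the opposite strand. The library kit keeps strand, per the labels' protocols, but whether the counting used it is not given in the sources used here. GENCODE 29 also names 32 pseudogenes after 12 of the members, and none of these was listed separately. Whether reads from such copies were counted for the parent genes was not tested.

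Promoters are shown for 4 members whose values are described next: PSMD2, the gene with the smallest p, PSMD3, and the PSME1 and PSME2 pair. RefSeq windows (GRCh38.p14) of 250 bases before to 50 after the start matched 35 of 40 members by symbol. The others were PSMA7, PSMB1, PSMB6, PSMB7 and PSMD4. Where a gene had several windows, the most upstream one was searched. The sequences below run 5′ to 3′ on the gene's strand and stop 20 bases after the start. Capitals mark matches on either strand, to the GC box GGGCGG in PSMD2, to the core of the antioxidant response element TGACNNNGC in PSMD3, and to GAAA, any 2 bases and GAAA, the letters of an interferon-response type element, in PSME1 and PSME2.
PSMD2 (chr3:184298991-184299260, plus strand): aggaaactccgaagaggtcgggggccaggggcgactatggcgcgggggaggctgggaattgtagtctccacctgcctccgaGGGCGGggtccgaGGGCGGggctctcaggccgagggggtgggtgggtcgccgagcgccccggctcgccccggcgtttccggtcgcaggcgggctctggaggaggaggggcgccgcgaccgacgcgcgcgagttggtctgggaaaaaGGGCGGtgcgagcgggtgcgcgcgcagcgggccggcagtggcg
PSMD3 (chr17:39980557-39980826, plus strand): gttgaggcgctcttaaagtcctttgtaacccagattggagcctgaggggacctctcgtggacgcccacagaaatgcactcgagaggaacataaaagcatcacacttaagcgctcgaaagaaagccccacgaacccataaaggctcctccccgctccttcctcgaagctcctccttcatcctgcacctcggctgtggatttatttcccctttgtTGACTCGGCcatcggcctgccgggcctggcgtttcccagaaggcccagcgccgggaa
PSME1 (chr14:24135944-24136213, plus strand): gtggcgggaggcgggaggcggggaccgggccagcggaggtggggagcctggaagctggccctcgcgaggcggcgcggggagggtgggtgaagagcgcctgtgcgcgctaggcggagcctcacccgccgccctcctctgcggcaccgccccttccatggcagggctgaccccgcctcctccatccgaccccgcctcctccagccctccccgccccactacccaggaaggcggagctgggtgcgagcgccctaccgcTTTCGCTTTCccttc
PSME2 (chr14:24146591-24146860, minus strand): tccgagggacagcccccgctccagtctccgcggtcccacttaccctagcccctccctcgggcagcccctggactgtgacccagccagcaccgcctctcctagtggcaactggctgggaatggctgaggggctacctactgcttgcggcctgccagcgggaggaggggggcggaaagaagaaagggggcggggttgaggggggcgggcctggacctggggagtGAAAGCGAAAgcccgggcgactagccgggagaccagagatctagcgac
PSMD2 had 3 GC boxes and PSMD3 a second element core 34 bases after the start. The match began 6 bases after the start in PSME1 and 28 bases before it in PSME2.

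TGACNNNGC, the letters in common between elements bound by NRF1 and NRF2 with small MAF proteins, was in 10 of 35 member windows (28.6%), against 13.6% of all 27305 promoters and 15.5% of those of tested genes. They were PSMB3, PSMC4, PSMD1, PSMD3, PSMD5, PSMD9, PSMD12, PSME1, PSME2 and PSME4. The interferon-response type letters were in 5 of 35 (14.3%; PSMA4, PSMB4, PSMB10, PSME1 and PSME2), against 3.66% of all promoters and 2.82% of those of tested genes, and this motif was chosen after the data had been seen. Both strands were searched, and overlap between motifs was not examined. CCAAT was in 45.7% of member windows and 35.7% of all promoters, the ETS core CCGGAAG in 31.4% and 10.6%, and GGGCGG in 62.9% and 44.5%. Among promoters of tested genes, CCGGAAG was in 20.8% and GGGCGG in 71.5%. These are matches of letters and say nothing of binding in these cells.

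Levels spanned a 20.5-fold range between members, from PSMF1 to PSMD2. PSMD2, which encodes the 19S scaffold RPN1 where shuttle proteins dock, was highest at a mean of 440.2 FPKM over the 6 libraries. It was followed by the core genes PSMA7 (252 FPKM), PSMB4 (204 FPKM) and PSMB7 (190.5 FPKM), whose order did not change in any library. The lowest were PSMD5 (27.2 FPKM), PSMB10 (24.0 FPKM), PSME4 (21.8 FPKM) and PSMF1 (21.4 FPKM). Neighbours such as PSME4 and PSMF1 overlapped between libraries. The median level was 106 FPKM in core genes and 69.1 FPKM in 19S genes, against 11.3 FPKM over all tested genes, and the ranges of core genes (24.0 to 252 FPKM) and 19S genes (27.2 to 440.2 FPKM) overlapped widely. Within the core, the PSMB median was 138 FPKM and the PSMA median 86.2 FPKM on the deposited gene lengths. This gap depends on the length used. On the principal transcript's length, described next, PSMA1, the gene at the PSMA median, was at 119 FPKM. PSMB1 and PSMB3, the genes around the PSMB median, were at 131 and 137.5 FPKM. Together the members held 1.12% to 1.16% of the FPKM sum of each library and 0.715% to 0.748% of its fragments.

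**Figure D2:**
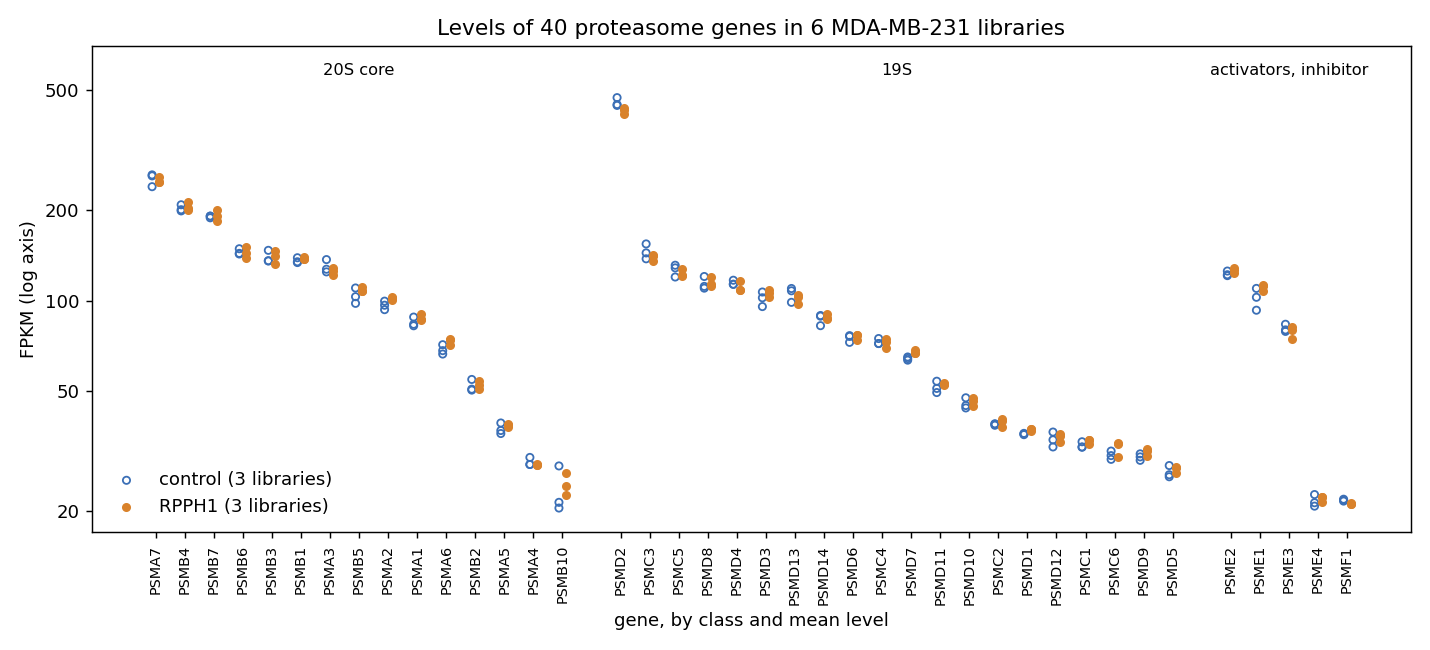
FPKM (log axis) of 40 proteasome genes in each of 6 libraries, by class and then by mean level over all libraries. Open points are 3 control and filled points 3 RPPH1 libraries. Differences between genes, from 21.4 to 440.2 FPKM in the mean, exceed those between libraries of a gene.

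The order depends in part on the gene length behind each FPKM value. The length recovered from the deposited values was over 1.5 times that of the principal transcript in GENCODE 29 for 5 members. For PSMA6 it was 2802 bases against 1029 bases, and for PSME3, whose product caps nuclear 20S particles, 3548 bases against 998 bases. On the principal transcript's length the level of PSMA6 was 193 FPKM in place of 70.8 FPKM and that of PSME3 was 283 FPKM in place of 79.6 FPKM, which moved PSME3 from rank 21 to rank 2. PSMF1, the lowest on the deposited length, was at 41.5 FPKM, and PSMB10 was the lowest at 19.2 FPKM. PSME2 was at 70.2 FPKM in place of 124 FPKM, its recovered length being shorter than that of the principal transcript. PSMD2 remained first at 385 FPKM, so that the range from PSMB10 to PSMD2 was 20.03-fold. This alternative divided all fragments of a gene by the principal transcript's length. Any fragments from bases outside that transcript therefore raise the value, as could be so for PSME3 and PSMA6, and their number is not known. The alternative was chosen after the data had been seen. It does not touch the comparison between groups, in which length cancels apart from the pseudocount.

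**Figure D3:**
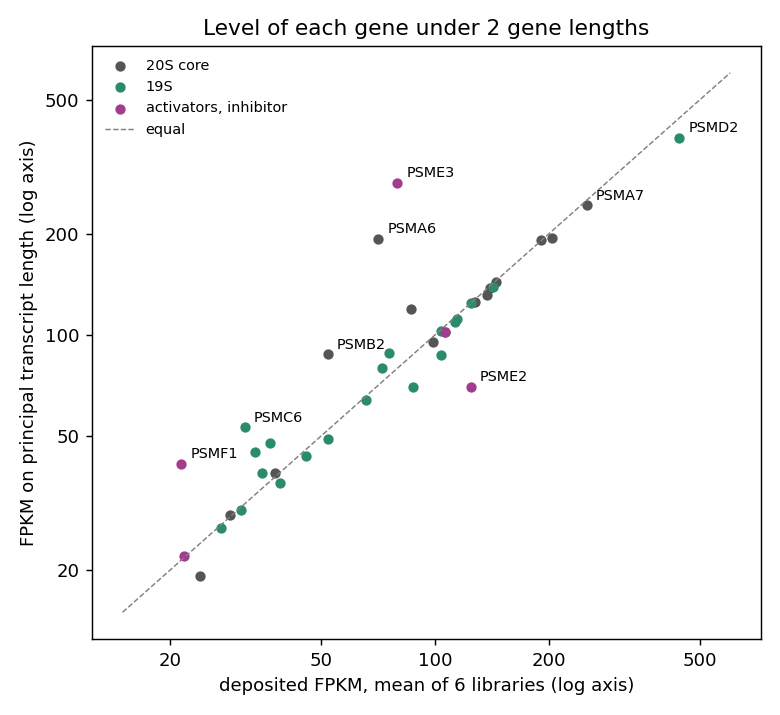
Level of each of 40 genes as the deposited FPKM (x axis, log, mean of 6 libraries) and recomputed on another length (y axis, log), coloured by class. The y axis divides all fragments of the gene by the length of the principal transcript. PSME3 and PSMA6 lie farthest above the line of equality, at 283 and 193 FPKM on the y axis.

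Among alpha subunits, PSMA6 and PSMA2 came closest to the threshold. PSMA6 was at 71.3, 68.2 and 66.4 FPKM in control replicates 1, 2 and 3 and at 70.9, 73.8 and 74.4 FPKM in RPPH1 replicates 1, 2 and 3. The groups overlapped because control replicate 1 lay above RPPH1 replicate 1. Its log2 fold change was 0.089 with an SE of 0.0406 (limma adjusted p 0.639). PSMA2 was at 99.5, 93.2 and 96.5 FPKM in controls and 100.2, 102 and 103 FPKM in RPPH1 cells, and here the groups did not overlap. Its log2 fold change was 0.076, with a 95% interval from -0.007 to 0.16 (limma adjusted p 0.665). PSMA2 overlaps MRPL32 on the other strand. The alpha subunits with lower means were PSMA3 (129 ± 6.47 and 125 ± 3.39 FPKM, mean ± SD of 3 libraries in control and then RPPH1 cells, as in all pairs of this kind), PSMA4 (29.1 ± 0.914 and 28.5 ± 0.192 FPKM) and PSMA7 (253 ± 12.5 and 250.5 ± 5.93 FPKM). The groups overlapped in all 3. They also overlapped in PSMA1 and PSMA5, which had log2 fold changes of 0.053 and 0.038 (limma adjusted p 0.768 and 0.860).

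None of the 4 catalytic genes passed the test, and the groups overlapped in each, where 13.9% of all tested genes had groups without overlap. PSMB5, whose product cuts after hydrophobic residues and is the main target of bortezomib, was at 110.0, 97.8 and 103 FPKM in controls and 107, 108 and 111 FPKM in RPPH1 cells. Control replicate 1 lay within the RPPH1 values and the other controls below them. The log2 fold change was 0.070 (95% interval -0.032 to 0.17, limma adjusted p 0.726). PSMB6, the caspase-like subunit, was at 149, 143 and 143 FPKM and 138, 144 and 150.3 FPKM. PSMB7, the trypsin-like subunit, was at 188, 191 and 191 FPKM and 184, 190.2 and 199.6 FPKM. For both, the RPPH1 libraries lay on both sides of the controls, with intervals from -0.10 to 0.081 for PSMB6 and from -0.074 to 0.094 for PSMB7. PSMB10, which takes the place of PSMB7 in the immunoproteasome, was at 21.4, 20.5 and 28.2 FPKM in controls and 22.6, 26.9 and 24.3 FPKM in RPPH1 cells. Its mean level was below those of PSMB5, PSMB6 and PSMB7, and control replicate 3 was the highest of the 6. It rested on 364 to 506 fragments per library, the fewest of the members, and its log2 fold change of 0.082 had the widest interval (-0.16 to 0.32). Of the noncatalytic beta genes PSMB1, PSMB2, PSMB3 and PSMB4, all had log2 fold changes between 0.0061 and 0.027.

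In the 19S particle, PSMD2 had the smallest p of the members. It was at 472, 444 and 447 FPKM in controls and 428, 416 and 435 FPKM in RPPH1 cells. Every RPPH1 library lay below every control. The log2 fold change was -0.092 with an SE of 0.0355, a difference of -6.21%. The unadjusted p was 0.0269 and the limma adjusted p was 0.573. With 22532 to 26779 fragments per library, counting error was 0.64% of the level, and replicates differed by more than that (SD 14.9 FPKM in controls). Without control replicate 1, the highest library, the log2 fold change was -0.066, and without control replicate 2 it was -0.108.

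PSMD7, which pairs with the deubiquitinase PSMD14, was at 64.2, 64.9 and 63.4 FPKM in controls and 68.3, 66.9 and 66.98 FPKM in RPPH1 cells, without overlap. Its log2 fold change was 0.070 (limma adjusted p 0.668), and that of PSMD14 was 0.020 at 86.8 ± 3.72 and 88.0 ± 1.90 FPKM. PSMD1, the other large scaffold, was at 36.05, 35.9 and 36.2 FPKM and 37.4, 37.5 and 36.8 FPKM, again without overlap, with a log2 fold change of 0.047 (limma adjusted p 0.780). The direction of PSMD1 and PSMD7 was thus opposite to that of PSMD2 in the same particle, though none of the 3 passed. PSMD4, a ubiquitin receptor, was at 114 ± 2.06 and 111 ± 4.48 FPKM, and PSMD3, a lid subunit, at 101 ± 5.66 and 106 ± 2.89 FPKM. Both pairs of groups overlapped.

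Of the 6 ATPase genes, 3 had higher and 3 lower means, and none of them had groups that did not overlap. Among all tested genes only 13.9% had such groups, so their absence in 6 genes says little. PSMC3, the most abundant, was at 145 ± 8.36 and 139 ± 3.52 FPKM, with a log2 fold change of -0.057 (limma adjusted p 0.783). PSMC6, the least abundant on the deposited length but above PSMC1 and PSMC2 on that of the principal transcript (53.2 FPKM against 44.9 and 36.3 FPKM), was at 30.6 ± 0.973 and 32.5 ± 1.92 FPKM, with a log2 fold change of 0.080 (limma adjusted p 0.717). PSMC5 was at 126 ± 5.90 and 123 ± 3.51 FPKM, while PSMC1, PSMC2 and PSMC4 lay between -0.016 and 0.043 in log2 fold change. The chaperones PSMD5, PSMD9 and PSMD10 help to assemble the ATPase ring and leave before the particle is complete. Their log2 fold changes were 0.034, 0.056 and 0.023, with PSMD9 at 30.2 ± 0.749 and 31.5 ± 0.836 FPKM. The lid genes PSMD6, PSMD8, PSMD11, PSMD12 and PSMD13 lay between -0.051 and 0.036.

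Among activators, PSME1 had the highest estimate of the 40 members, and its size varied with the control library left out. PSME1 and PSME2 encode the interferon-inducible PA28 ring, which opens the gate without ATP. PSME1 was at 92.8, 109.7 and 102 FPKM in controls and 112, 107 and 113 FPKM in RPPH1 cells. Control replicate 1 was the lowest library, and control replicate 2 lay above RPPH1 replicate 2. The log2 fold change was 0.12 with an SE of 0.0564 (limma adjusted p 0.639). It was 0.060 without control replicate 1 and 0.179 without control replicate 2, the ends of the range over left-out libraries. PSME2 was at 125, 122 and 121 FPKM and 126, 124 and 128 FPKM, with a log2 fold change of 0.036 (limma adjusted p 0.817). PSME3 was at 83.4, 79.0 and 79.9 FPKM and 79.6, 74.4 and 81.5 FPKM, and PSME4, which encodes the nuclear activator PA200, at 20.8, 21.3 and 22.7 FPKM and 22.3, 21.4 and 22.2 FPKM. Both overlapped between groups. PSMF1, which encodes PI31, named for inhibiting the core in vitro, was at 21.9, 21.7 and 21.6 FPKM in controls and 21.1, 21.1 and 21.2 FPKM in RPPH1 cells. All its RPPH1 values lay below the controls, but the difference was -2.61% (log2 fold change -0.038, 95% interval -0.13 to 0.049, limma adjusted p 0.843).

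Across members, 28 of 40 (70%) had higher means in RPPH1 cells, against 52.3% of all tested genes. The median log2 fold change was 0.024, against 0.0046 over all tested genes. By class, 11 of 15 core genes, 14 of 20 19S genes and 3 of 5 activator or inhibitor genes had higher means, with median log2 fold changes of 0.021, 0.024 and 0.026, so the classes had nearly the same median. Groups did not overlap in 5 of 40 members (12.5%), which were PSMA2, PSMD1 and PSMD7 (higher) and PSMD2 and PSMF1 (lower). This share was close to that of all tested genes, 13.9%, of which 7.98% were higher and 5.88% lower. The members are transcripts of the same 6 libraries and not independent replicates of the comparison, and in bulk RNA a change in the share of cells and in RNA per cell cannot be told apart.

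The class medians moved with single libraries. Without control replicate 1, 30 of 40 members had higher means and the median over members was 0.043, with 0.043 for the core, 0.051 for 19S and -0.00031 for activators and the inhibitor. Without control replicate 3, 23 of 40 had higher means, and the medians were 0.013 over members, 0.013 for the core and -0.0016 for 19S. Without control replicate 2 the medians were 0.013 over members, 0.0079 for the core, 0.015 for 19S and 0.018 for activators and the inhibitor. Leaving out RPPH1 replicate 1 gave 0.038 for the core, 0.013 for 19S and 0.015 for activators and the inhibitor, and leaving out RPPH1 replicate 2 gave 0.040 for 19S and 0.043 for activators and the inhibitor.

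**Figure D4:**
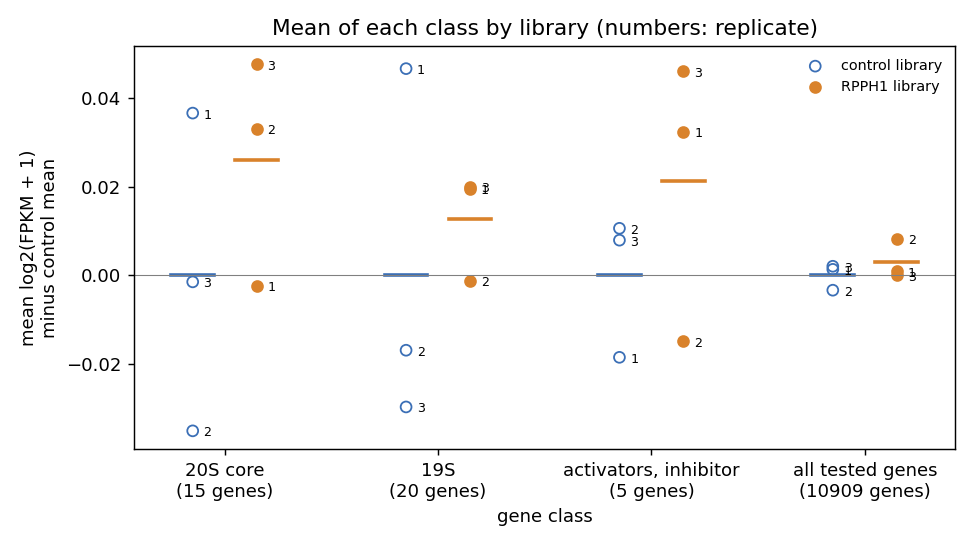
Mean of log2(FPKM + 1) over the genes of a class, relative to the mean of the 3 controls (y axis), for each library, with all 10909 tested genes for scale. Open points are control and filled points RPPH1 libraries, numbers are replicates and bars are group means. Groups overlap in all 3 proteasome classes, with control replicate 1 at 0.037 in the core, 0.047 in 19S and -0.018 in activators and the inhibitor.

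Library means of the classes overlapped between groups. Relative to the control mean, the core mean of control replicates 1, 2 and 3 was 0.037, -0.035 and -0.0015, and that of RPPH1 replicates 1, 2 and 3 was -0.0023, 0.033 and 0.048. For 19S the values were 0.047, -0.017 and -0.030 in controls and 0.020, -0.0012 and 0.020 in RPPH1 cells. Control replicate 1 was the highest 19S library and second to RPPH1 replicate 3 in the core, but the lowest library for activators and the inhibitor (-0.018). It held the highest value of the 6 libraries in 18 of 40 members (45%), against 24.2% of all tested genes, while control replicate 2 held the highest in 0 of 40, against 14.0% of all tested genes. Control replicate 3 held the lowest value in 14 members (35%), against 16.2% of all tested genes. Control replicate 1 also had the lowest mean of 12 tested hypoxia genes, at -0.41 from the control mean, against 0.29 and 0.12 in control replicates 2 and 3 and -0.068 to 0.079 in RPPH1 libraries. The part of that difference in the proteasome values was not tested.

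**Figure D5:**
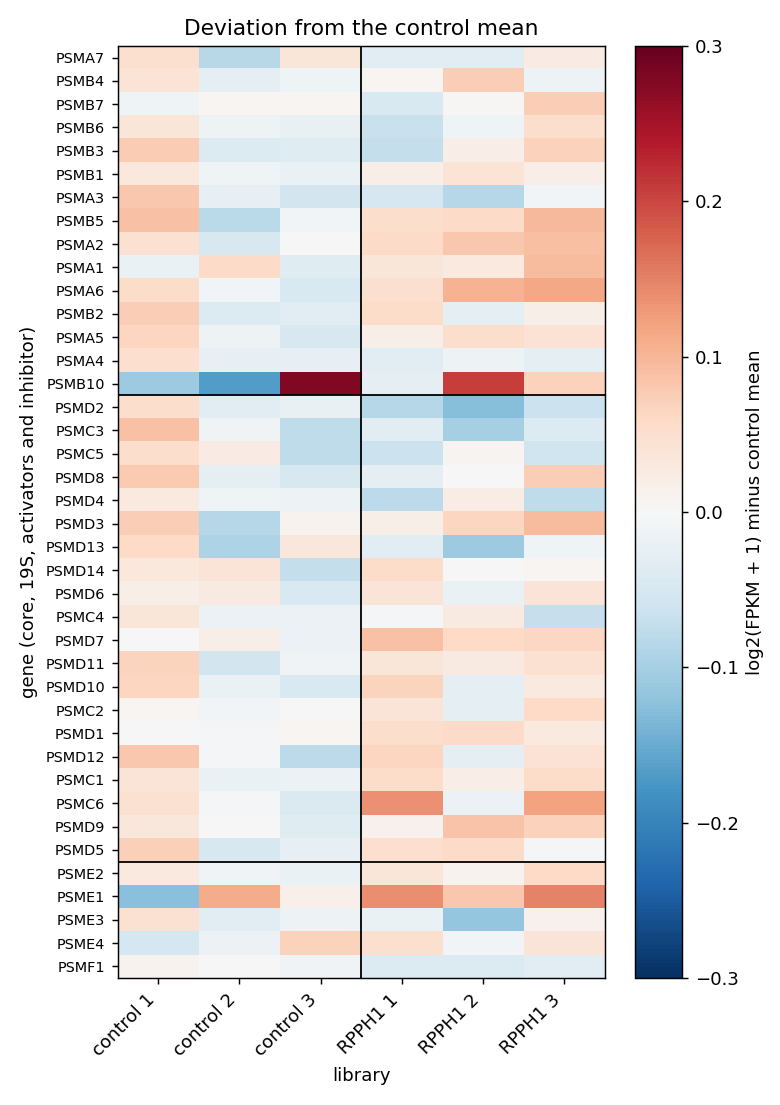
Deviation of log2(FPKM + 1) from the mean of the 3 controls (colour) for 40 proteasome genes (y axis) in each of 6 libraries (x axis). Horizontal lines separate core, 19S and activator or inhibitor genes, and the vertical line separates control from RPPH1 libraries. PSMB10 varies most between libraries, and control replicate 1 is above the control mean in most core and 19S genes.

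Other genes of the pathway showed the same lack of called differences. Of 41 listed genes for assembly, docking, ubiquitin supply and transcription, 20 had higher and 21 lower means, 0 passed in either direction by limma or voom, and 0 had an unadjusted p under 0.05 by limma. Groups did not overlap in 5 of 41 (12.2%, against 13.9% of all tested genes). NFE2L1, the gene of NRF1, was at 104, 107 and 109.1 FPKM in controls and 103, 109 and 105 FPKM in RPPH1 cells, interleaved between groups, with a log2 fold change of -0.019 (95% interval -0.10 to 0.064, limma adjusted p 0.927). Of its list of 6 genes, which are transcription factors and the NRF1-processing enzyme NGLY1, 1 had a higher and 5 had lower means. NFE2L2, the gene of NRF2, had the smallest p of that list at 35.4 ± 0.772 and 37.1 ± 1.35 FPKM.

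POMP, the chaperone that completes the core, was at 70.8, 71.8 and 71.6 FPKM in controls and 72.8, 75.1 and 73.3 FPKM in RPPH1 cells, without overlap, with a log2 fold change of 0.045 (limma adjusted p 0.772). Of the 7 assembly factors, 5 had higher and 2 lower means, with the smallest p at PAAF1, which binds 19S ATPases (2.41 ± 0.143 and 2.76 ± 0.303 FPKM). Of 8 proteasome-bound proteins, 3 had higher and 5 lower means, with the smallest p at TXNL1, a thioredoxin-like protein on the 19S particle (9.38 ± 0.424 and 9.99 ± 0.314 FPKM). ADRM1 and SEM1, the 19S subunits in this list, were among those with lower means (log2 fold changes -0.022 and -0.059) and are not in the 19S counts. Of 8 shuttle receptors, 5 had higher and 3 lower means, with the smallest p at ZFAND5 (27.4 ± 0.744 and 29.3 ± 1.53 FPKM). For p97, the ATPase that extracts substrates, and its cofactors the split was 3 and 3, with the smallest p at NSFL1C (26.2 ± 0.636 and 27.2 ± 1.34 FPKM). For ubiquitin genes and their activating enzymes it was also 3 and 3. UBB, a ubiquitin gene whose level is uncertain because ubiquitin genes share sequence, had the smallest p there, at 433, 419 and 427 FPKM in controls and 441, 445 and 450.2 FPKM in RPPH1 cells. Its log2 fold change was 0.064 (limma adjusted p 0.651).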

How the data were processed

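Messenger RNA was sequenced from 3 control and 3 RPPH1 libraries of MDA-MB-231 cells. The authors deposited FPKM values, 1 column per library. Trimmomatic, HISAT2, Cufflinks and the build GRCh38 appear without versions in the submitters' processing notes, and stranded TruSeq mRNA libraries in the labels' protocols. The annotation release is not given in the sources used here. FPKM hides depth, so fragment numbers were recovered from the steps between values: every library gave whole numbers, to within 0.01 fragments, at 100% of the 10909 genes tested. Totals were 17603126 to 18817269 fragments, and fragment numbers of replicates varied beyond sampling noise. Counting errors given per library cover counting only, while SDs, SEs and confidence intervals come from the spread between libraries.

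The filter kept genes reaching 1 FPKM in 3 or more libraries. The test was that of limma 3.58.1 (R 4.3.3) for log2(FPKM + 1), with the trend option and group as the only term, two-sided, with Benjamini-Hochberg adjustment over all tested genes and a threshold of 0.05. A fold change is on the log2(FPKM + 1) scale and understates that of low genes. An exact permutation test of 3 against 3 libraries cannot go below 0.1. Alternatives were a pseudocount of 0.1, no filter, a filter of 5 FPKM, median-of-ratios rescaling, limma-voom on recovered fragments without TMM, the replicate number as a block and leaving out each library. The scripts were tested on simulated data. The changes simulated for limma were larger than the estimate of any member, so sensitivity to differences as small as those of the members was not tested. Members and gene lists were chosen with earlier results of these data known. Named were the members with the 3 smallest p per class and direction, the highest and lowest level per subfamily, catalytic and PSME or PSMF genes, and the smallest p, NFE2L1 and POMP in the pathway lists; other members named were chosen after their values were seen. Coordinates and principal transcripts came from GENCODE 29 on GRCh38, promoters from RefSeq. PGR, on the marker lists, was not analysed here. No sample column was left unused.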

Additional observations from a re-analysis of the deposited data

How the results depend on the processing

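Under all alternatives run, 0 of 40 proteasome genes passed, with a smallest adjusted p between 0.364 and 0.925 by limma or voom. The number of genes called over all tested genes was 1, and it was 0 with no filter on low values, 8 with a filter of 5 FPKM, 0 with the replicate number as a block, 17 by limma-voom and 0 to 7 when one library was left out. The cause was not tested. The number of members with higher means was 28 in every alternative that kept all libraries and 23 to 30 when one was left out. The median log2 fold change of activators and the inhibitor was -0.00031 to 0.043 with one library left out, and with all libraries the class medians moved by less than the spread between libraries. In 27 of 40 members no left-out library changed the sign of the log2 fold change. In the other 13, the largest of which was 0.082 with all libraries, the ranges over left-out libraries were PSMA7 -0.055 to 0.0098, PSMB10 -0.0024 to 0.22, PSMB2 -0.0065 to 0.051, PSMB3 -0.025 to 0.044, PSMB4 -0.0048 to 0.041, PSMB6 -0.039 to 0.021, PSMB7 -0.021 to 0.038, PSMC4 -0.037 to 0.011, PSMD12 -0.013 to 0.067, PSMD14 -0.015 to 0.040, PSMD6 -0.0040 to 0.038, PSMD8 -0.013 to 0.055 and PSME4 -0.00031 to 0.061. Same-numbered libraries of both groups did not deviate together (correlations 0.057, 0.018 and -0.10 for numbers 1, 2 and 3), so the replicate block rests on a shared number only. With it, no member's call changed. Control replicate 1 was at -10.9 on the first principal component, against -0.11 to 4.4 for the others. With 3 libraries per group, the median half-width of a member's 95% interval was 0.093 on the log2 scale.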
